A study of Mus musculus with 15 samples.

Results

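Sarcomere and myosin genes are described here across 15 RNA-seq libraries of mouse brainstem. The members are 10 genes of 57180 in the deposited tables, taken by symbol: Acta1, Neb, Ttn, Actn2, Cmya5, Myh3, Myh8, Myh1, Myh2 and Ckm. They were picked with the AMPK comparison already known, so their values and calls in that comparison are given as a description and support nothing. The AMPK experiment compared neonatal C57BL/6 mice that carry both copies of Prkaa2, the gene of the AMPKα2 subunit (AMPK+/+, 3 libraries), with littermates lacking it (AMPK-/-, 3 libraries). The Lmx1b experiment compared prenatal embryos of the genotypes LMX1B+/+, LMX1B+/- and LMX1B-/-, with 3 libraries each; Lmx1b encodes a LIM-homeodomain transcription factor of hindbrain patterning. The labels do not say whether the libraries of a group came from separate animals, so the p-values measure only the spread between libraries.

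The sarcomere is the contractile unit of striated muscle, in which myosin thick filaments pull on actin thin filaments that are anchored at the Z-disc. Each type of fiber and stage of development has its own myosin heavy chain: Myh3 encodes the embryonic chain, Myh8 the perinatal chain, and Myh1, Myh2 and Myh4 the fast chains of adult muscle, while Myh7 encodes the slow chain. Neurons and glia do not build sarcomeres, so in brainstem RNA these genes show how much striated muscle, or transcription of muscle genes outside muscle, a library carries. In bulk tissue, more cells of a type and more RNA per cell cannot be told apart.

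The AMPK libraries held between 291212 and 17384171 counts, of which AMPK+/+ 2 held 291212 and AMPK-/- 3 held 335986. A count of 0 allows up to 9.98 CPM (counts per 1000000 counts of the library total, scaled by TMM) in AMPK+/+ 2 and 9.07 CPM in AMPK-/- 3, where the limit is 3 counts, and 0.175 to 0.198 CPM in the other 4. The Lmx1b libraries held between 28833130 and 37441679 counts, with limits of 0.0676 to 0.109 CPM. Prkaa2 was at 21.9 to 29.7 CPM in AMPK+/+ and at 12.1 to 25.4 CPM in those labelled AMPK-/-, so that its level does not set the genotypes apart, and the sources used here do not say which exons are deleted. AMPK-/- therefore means the libraries labelled so. Lmx1b was at 0.848 to 1.45 CPM in LMX1B-/- and at 9.73 to 22.5 CPM in LMX1B+/+, whereas the 11.9 to 30.5 CPM of LMX1B+/- overlapped LMX1B+/+. Markers of hindbrain and neurons, 10 genes, summed to 2066 to 2711 CPM in the AMPK libraries and to 1655 to 2417 CPM in the Lmx1b libraries.

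The myosins are close copies of each other, which bears on how far their counts can be told apart. Between the coding sequences of Myh3, Myh8, Myh1, Myh2 and Myh4 the identity was 80.2% to 90.9%, highest between Myh1 and Myh2. Of the stretches of 50 bases in the transcripts of Myh1, 25.4% also occur in another gene. The share was 22.9% for Myh2, 18.9% for Myh4, 12.1% for Myh8 and 4.76% for Myh3. It was 0% for Neb, Ttn, Cmya5 and Ckm and 2.02% for Acta1. Reads from the shared stretches could have been credited to the wrong myosin, and how the authors treated them is not given in the sources used here. The 60 bases that differ most between the 5 myosins are printed below from the GENCODE transcripts, since these bases set the genes apart. They cover positions 1831 to 1890 of the Myh3 coding sequence and 1837 to 1896 of the others, and capitals mark the 40 positions at which the 5 genes are not all alike.
Myh3: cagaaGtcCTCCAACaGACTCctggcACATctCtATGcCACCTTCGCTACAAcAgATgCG
Myh8: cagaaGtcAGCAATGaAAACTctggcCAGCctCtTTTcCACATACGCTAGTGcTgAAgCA
Myh1: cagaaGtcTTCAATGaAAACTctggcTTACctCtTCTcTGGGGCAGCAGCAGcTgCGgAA
Myh2: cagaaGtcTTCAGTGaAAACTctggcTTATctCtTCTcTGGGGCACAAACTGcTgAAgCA
Myh4: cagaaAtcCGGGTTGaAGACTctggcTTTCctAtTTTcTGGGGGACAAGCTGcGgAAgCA

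In the AMPK table, AMPK+/+ 3 stood apart from every other library. The 10 genes summed to 681 CPM there, from 11662 counts, to 21.1 and 13.3 CPM in AMPK+/+ 1 and 2, and to 7.53, 12.6 and 12.1 CPM in AMPK-/- 1 to 3. The plot of the 10 genes in the 6 AMPK libraries shows the same library above the rest for 9 genes. The exception was Myh3.

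**Figure D1:**
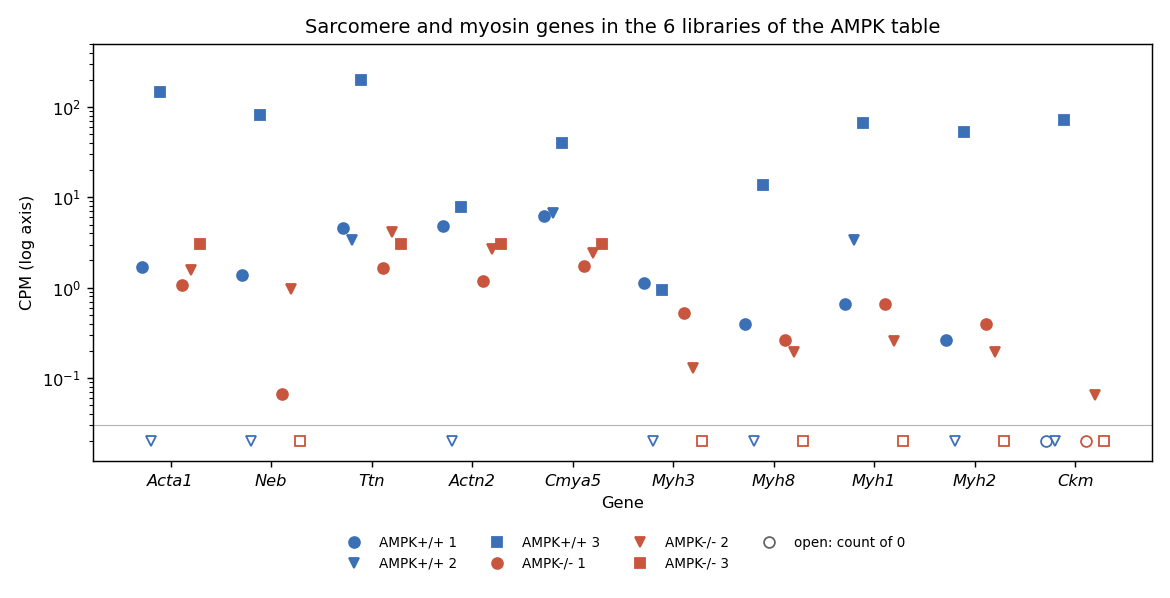
CPM of the 10 genes (log axis) in each library of the AMPK table, with AMPK+/+ in blue, AMPK-/- in red, a symbol for each replicate number and open symbols for a count of 0. AMPK+/+ 3 (blue squares) lies highest for every gene but Myh3, for example at 148 CPM for Acta1, where the other 5 libraries lie between 0 and 3.02 CPM.

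Among the genes of the thin filament, Acta1, the skeletal muscle actin (ENSMUSG00000031972), was at 1.71, 0 and 148 CPM in AMPK+/+ 1 to 3 and at 1.06, 1.55 and 3.02 CPM in AMPK-/- 1 to 3. Neb (ENSMUSG00000026950), which encodes nebulin, the giant protein along the thin filament, was at 1.38, 0 and 81.4 CPM in AMPK+/+ and at 0.0661, 0.972 and 0 CPM in those labelled AMPK-/-. For both genes a single AMPK+/+ library was high, and the other AMPK+/+ libraries lay among or near those of AMPK-/-. Against AMPK+/+ 1 and AMPK-/- 1 and 2, the other deep libraries, counts in AMPK+/+ 3 were 102 times as high for Acta1 (95% interval 80.1 to 133) and 101 times for Neb (72.7 to 144). These intervals cover counting error only, and they compare libraries, not genotypes.

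Ttn (ENSMUSG00000051747) encodes titin, the elastic protein that spans from Z-disc to M-band. It was at 4.54, 3.33 and 198 CPM in AMPK+/+ and at 1.65, 4.15 and 3.02 CPM in those labelled AMPK-/-. Actn2 (ENSMUSG00000052374), the Z-disc α-actinin, which neurons also make at synapses, was at 4.81, 0 and 7.82 CPM in AMPK+/+ and at 1.19, 2.66 and 3.02 CPM in those labelled AMPK-/-. The step in AMPK+/+ 3 was thus small for Actn2, at 2.71 times the other deep libraries (95% interval 2.12 to 3.47), and large for Ttn, at 57.5 times (49.0 to 67.9). Cmya5 (ENSMUSG00000047419), which encodes the muscle scaffold protein myospryn, was at 6.25, 6.66 and 39.7 CPM in AMPK+/+ and at 1.72, 2.40 and 3.02 CPM in those labelled AMPK-/-. Each AMPK+/+ value of Cmya5 lay above each AMPK-/- value, although its 6.66 and 3.02 CPM rest on 2 counts and 1 count. How often this holds among all genes is not given here.

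The myosins of AMPK+/+ 3 were mostly those of adult fast muscle. The embryonic chain Myh3 (ENSMUSG00000020908) was at 1.12, 0 and 0.934 CPM in AMPK+/+ 1 to 3 and at 0.529, 0.130 and 0 CPM in AMPK-/- 1 to 3. AMPK+/+ 3 did not exceed AMPK+/+ 1 for Myh3. Its Myh3 level was 1.58 times that of the other deep libraries together (95% interval 0.797 to 3.05), an interval that includes equal levels. The perinatal chain Myh8 (ENSMUSG00000055775) was at 0.395, 0 and 13.8 CPM against 0.264, 0.194 and 0 CPM. The adult chain Myh1 (ENSMUSG00000056328) was at 0.658, 3.33 and 66.1 CPM against 0.661, 0.259 and 0 CPM, where the 3.33 CPM is 1 count. Myh2 (ENSMUSG00000033196), another adult fast chain, was at 0.263, 0 and 53.5 CPM against 0.396, 0.194 and 0 CPM. Outside AMPK+/+ 3, no AMPK library had more than 17 counts for any of these 4 chains.

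Ckm (ENSMUSG00000030399), the muscle creatine kinase that buffers ATP at the M-band, had 1223 counts in AMPK+/+ 3, or 71.4 CPM, and 1 count in the other 5 libraries together. The ratio to the other deep libraries was 3267 (95% interval 585 to 129130). Ckm had the largest step of the 10 genes, and Ckb, the creatine kinase of brain, lay at 1113 CPM in AMPK+/+ 3 and between 1195 and 1425 CPM in the other 5 libraries. Levels per length put the 10 genes of AMPK+/+ 3 in another order than CPM does, since the gene lengths behind the deposited RPKM (counts per length and library total) run from 1536 bases for Acta1 to 117334 for Ttn. Acta1 was at 106 RPKM and Ckm at 27.1, followed by Myh1 at 11.5, Myh2 at 8.29, Cmya5 at 3.70, Neb at 3.37, Actn2 at 2.28, Ttn at 1.87, Myh8 at 1.30 and Myh3 at 0.171 RPKM.

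**Figure D2:**
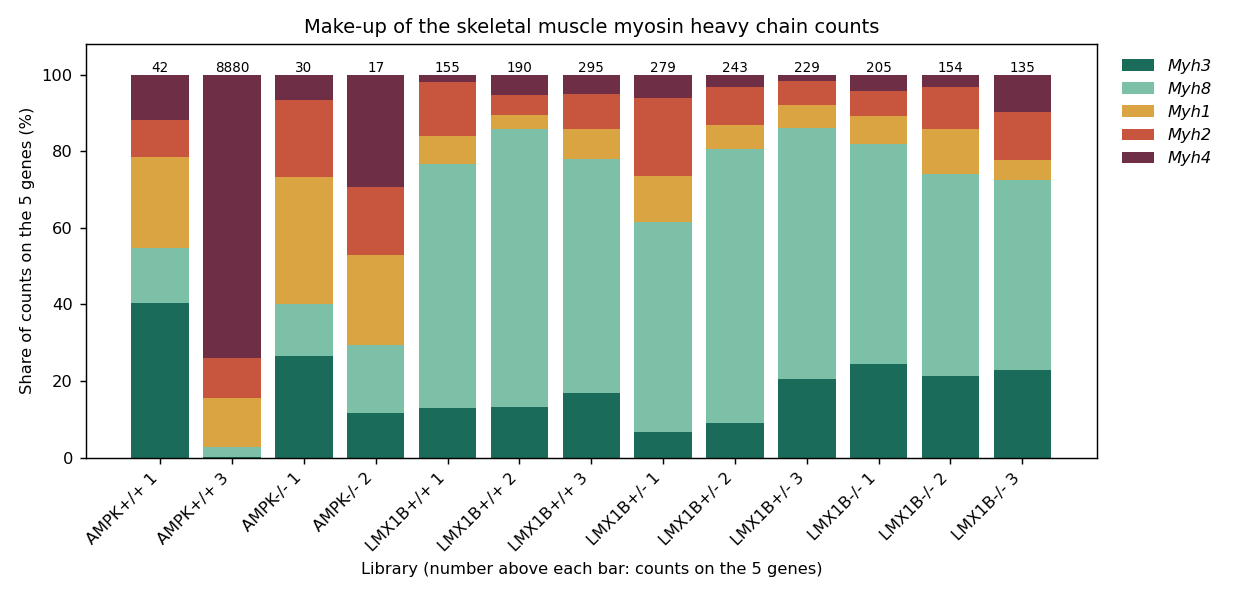
Share of each gene in the counts on Myh3, Myh8, Myh1, Myh2 and Myh4, in percent, for the libraries with more than 1 count on them, whose total stands above each bar. Myh4 makes up 74.1% in AMPK+/+ 3, and Myh8 makes up 49.6% to 72.6% in the 9 Lmx1b libraries.

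The make-up of the myosin counts set AMPK+/+ 3 apart from the embryonic libraries. Of the counts on Myh3, Myh8, Myh1 and Myh2, the developmental chains Myh3 and Myh8 took 11.0% in AMPK+/+ 3 (253 of 2302 counts; 95% Wilson interval 9.78% to 12.3%). They took 62.2% in AMPK+/+ 1 (23 of 37 counts; 46.1% to 75.9%), 42.9% in AMPK-/- 1 (12 of 28; 26.5% to 60.9%) and 41.7% in AMPK-/- 2 (5 of 12; 19.3% to 68.0%). Myh4, the fastest chain, which is no member and was chosen after its values were seen, had 6578 counts in AMPK+/+ 3 and at most 5 in any other AMPK library. With Myh4 included, the adult fast chains made up 97.2% of the myosin counts of AMPK+/+ 3 (8627 of 8880; 96.8% to 97.5%). The slow chain Myh7, also named after its values were seen, was at 3.56 CPM in AMPK+/+ 3 and between 3.02 and 3.82 CPM in the other 5 libraries. The adult fast chains were thus far above the other libraries in AMPK+/+ 3 and the slow chain was within their range.

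The other genes of striated muscle, 89 in 7 lists, were read in the same way. In AMPK+/+ 3, 69 of them were above the highest of the other 3 deep libraries, 32 by at least 10 times, and 20 were at or below it. Mylpf, the light chain of fast myosin, was at 90.8 CPM in AMPK+/+ 3 and at most at 1.88 CPM in the other 5 libraries. Casq1, the calcium-binding protein of the fast sarcoplasmic reticulum, was at 37.5 CPM against at most 3.33 CPM. Tpm2, a tropomyosin also made by smooth muscle, was at 81.1 CPM against 5.33 to 23.3 CPM. Tnni1, the slow troponin I, was at 5.14 CPM and lay below the 5.44 to 9.98 CPM of the other libraries.

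**Figure D3:**
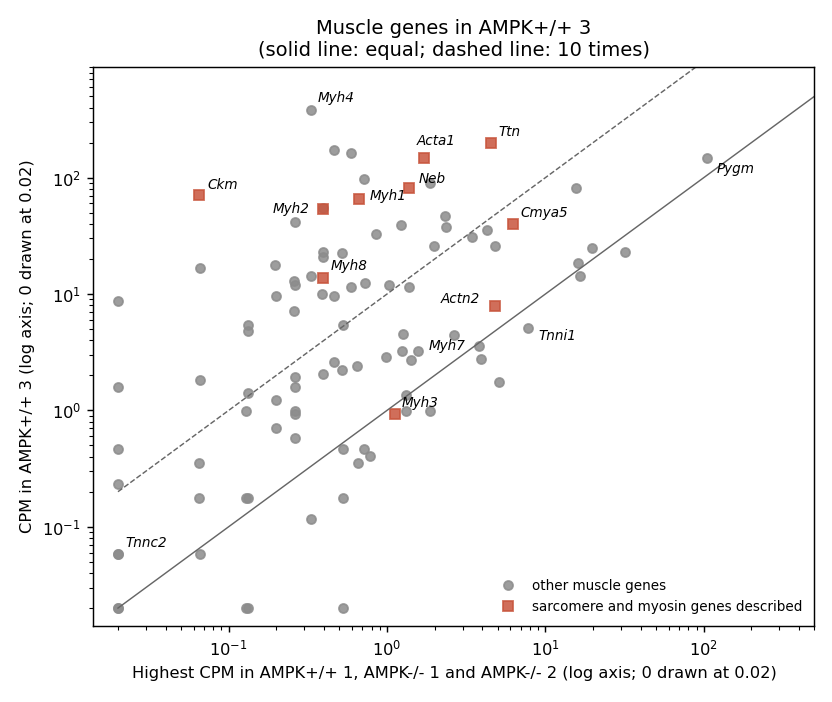
CPM in AMPK+/+ 3 against the highest CPM of the other 3 deep libraries of the AMPK table (both log axes), for the 10 genes described (red squares) and 89 other muscle genes (grey). Myh4, Ckm and Acta1 lie above the dashed line at 10 times, and Myh3, Myh7 and Tnni1 lie at or below the solid line of equal levels.

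The lists differed in how many genes were above the other deep libraries in AMPK+/+ 3. These were 17 of 18 genes of the Z-disc, 14 of 16 of excitation-contraction coupling, 9 of 10 of energy metabolism, 10 of 12 of the thin filament, 10 of 14 of the myosin and M-band list, 5 of 8 of the neuromuscular junction and 4 of 11 of the myogenic regulators. Slow and cardiac forms were found on both sides. Myh7, Tnni1 and Tnnc1 were at or below the other deep libraries, while the slow troponin T gene Tnnt1 was at 2.22 CPM against at most 0.518 CPM and Myl2, the light chain of slow and cardiac myosin, was at 2.39 CPM against at most 0.648 CPM. Of the regulators, Myf5, Myog and Mymk were at or below the other deep libraries and Myod1, Myf6 and Pax7 were above them, on 4 to 21 counts. Except for Tnni1, these genes were named after their values were seen. The 11 myogenic regulators summed to 4.79 CPM in AMPK+/+ 3, with 3 of them at 0, and to between 0 and 3.02 CPM in the other libraries. Tnnc2, the fast troponin C, had 1 count in AMPK+/+ 3, where its fast partners Tnni2 and Tnnt3 had 1684 and 2975. Tnnc2 shares exon bases with Ube2c on the opposite strand, and these 3 troponins were singled out after their values were seen.

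Markers of other tissues were compared with the same libraries. The 5 fat markers summed to 13.3 CPM in AMPK+/+ 3 and to between 0 and 6.98 CPM in the other libraries. The 12 tendon and connective tissue markers summed to 241 CPM, against 86.0 and 103 CPM in the other AMPK+/+ libraries and 128 to 246 CPM in those labelled AMPK-/-. The 8 cardiac markers, 3 of them at 0, summed to 10.2 CPM against 3.02 to 11.0 CPM, and the 7 smooth muscle markers to 18.0 CPM against 11.5 to 67.5 CPM. By these sums AMPK+/+ 3 lay within the range of the other libraries for cardiac and smooth muscle markers. For connective tissue markers it lay within the range of the AMPK-/- libraries and above the other AMPK+/+ libraries. For fat markers it lay above all other AMPK libraries. The part of the fat and connective tissue markers in the muscle values was not tested. Leaving out AMPK+/+ 3 raised the log2 fold change in AMPK-/- against AMPK+/+ for each connective tissue gene tested. It moved from -1.54 to 0.97 for Col1a1, from -0.89 to 1.34 for Postn and from 0.10 to 2.22 for Col3a1. It moved from 0.92 to 2.96 for Lum, from 1.57 to 2.77 for Dcn and from 2.44 to 3.27 for Tnmd. The others moved less, such as Scx from -0.22 to -0.13. Col1a1, Postn, Lum, Tnmd and Scx were named after their values were seen. The sums of the skin, pituitary, choroid plexus, and cartilage and bone markers and of 8 non-muscle relatives of the members in AMPK+/+ 3 also lay within the range of the other libraries. All 6 AMPK libraries carry the same flowcell and lane in their names.

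Of the 10 genes, 6 passed the filter on low counts in the AMPK comparison. All 6 were called lower in the libraries labelled AMPK-/- by edgeR's quasi-likelihood test, where of the 17397 genes tested 5.17% were called lower, 3.77% higher and 8.94% in either direction. The genes were picked on this comparison, so the count restates that choice. The log2 fold changes were -6.09 for Neb, -6.00 for Myh1, -5.54 for Acta1, -4.85 for Ttn, -3.35 for Cmya5 and -1.59 for Actn2. Without AMPK+/+ 3, 5 of the genes passed the filter and 0 were called by edgeR, where 1.60% of the genes tested were called lower, and 1 of the 5, Cmya5, had an unadjusted p under 0.05. The log2 fold changes were then -1.56 for Cmya5, -1.30 for Neb, -1.11 for Actn2, -0.58 for Ttn and -0.20 for Acta1. The median over the 5 genes was -1.11. Without the shallow libraries AMPK+/+ 2 and AMPK-/- 3, a fit chosen after seeing the data, 0 of 7 genes were called by edgeR, where 0.0166% of the genes tested were called lower, and 6 of the 7 had an unadjusted p under 0.05. The log2 fold changes then ran from -6.28 for Neb to -1.61 for Myh3.

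Of the 29 other muscle genes that passed the filter, 13 were called lower in the libraries labelled AMPK-/- and 0 higher. Without AMPK+/+ 3, 1 of the tested muscle genes was called, Flnc (filamin C, log2 fold change -1.32), which is also among the 13. By the likeness of their profile over the 6 libraries, the non-member genes nearest to the mean profile of the 6 tested members were Eno3, the muscle enolase, and Casq1, at root mean square differences of 0.85 and 0.89 on the log2 scale, followed by Zbtb16, Mybpc2 and Gm43080 at 1.09 to 1.17, where the mean profile itself spans 6.06.

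None of the 9 Lmx1b libraries stood apart in this way. The 10 genes summed to 19.6, 25.6 and 20.2 CPM in LMX1B+/+ 1 to 3, to 25.5, 23.8 and 21.3 CPM in LMX1B+/- and to 23.7, 18.6 and 19.0 CPM in LMX1B-/-. The group means were 21.8 ± 3.28, 23.6 ± 2.14 and 20.4 ± 2.82 CPM (SD, n = 3), and the ranges of the 3 groups overlapped. Per length, Acta1 was the highest of the 10 genes in LMX1B+/+, at 2.32 ± 0.340 RPKM (SD, n = 3), followed by Actn2 at 0.900 ± 0.223 and Myh8 at 0.373 ± 0.0765 RPKM, each above the next in every library. Cmya5, Myh3, Neb, Myh2, Myh1, Ttn and Ckm followed at 0.167, 0.163, 0.122, 0.0863, 0.0660, 0.0385 and 0.0228 RPKM, and each of these overlapped its neighbour in the order. The tables of the 2 experiments were scaled separately, so their levels are not compared by a test.

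**Figure D4:**
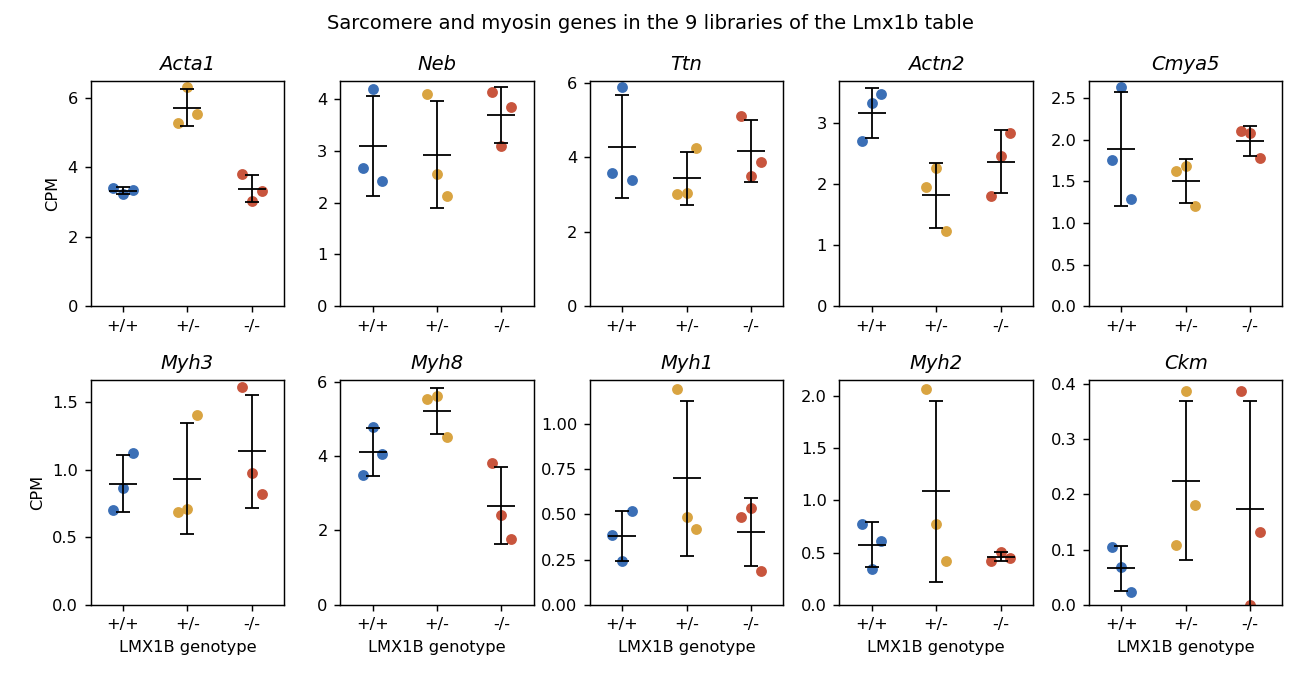
CPM of the 10 genes in the 9 libraries of the Lmx1b table by genotype, with a point for each library in the order of its number and the mean ± SD of 3 libraries in black. Acta1 is higher in each LMX1B+/- library than in any other library, and Myh8 is lower in each LMX1B-/- library than in any LMX1B+/- library. How often such a separation holds among all genes is not given.

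Acta1 and Actn2 differed between LMX1B+/- and LMX1B+/+. Acta1 was at 5.28, 6.32 and 5.55 CPM in LMX1B+/- 1 to 3, at 3.41, 3.22 and 3.36 CPM in LMX1B+/+ and at 3.81, 3.03 and 3.31 CPM in LMX1B-/-. Each LMX1B+/- library lay above all 6 others. How often groups separate in this way among all genes is not given, for Acta1 or for the genes that follow. Such a separation is therefore not read as particular to them. Acta1 rose in LMX1B+/- against LMX1B+/+ by 0.78 on the log2 scale (SE 0.16, edgeR quasi-likelihood adjusted p = 0.00222) and fell in LMX1B-/- against LMX1B+/- by 0.76 (SE 0.16, adjusted p = 0.00416). With library size in place of TMM, a scaling that moves the median of all genes by -0.24 and 0.20 in these comparisons, the changes were 0.54 (adjusted p = 0.0623) and -0.56 (adjusted p = 0.0735). Relative to the median of all genes under that scaling they were 0.81 and -0.78. Over the 15 alternatives of each comparison, the adjusted p of Acta1 lay between 0.000247 and 0.0623 and between 0.000419 and 0.0735.

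Actn2 was at 1.95, 2.26 and 1.23 CPM in LMX1B+/-, at 2.71, 3.32 and 3.47 CPM in LMX1B+/+ and at 1.81, 2.47 and 2.84 CPM in LMX1B-/-. Each LMX1B+/- library lay below each LMX1B+/+ library, while LMX1B-/- overlapped both. Actn2 fell in LMX1B+/- against LMX1B+/+ by 0.81 on the log2 scale (SE 0.25, edgeR quasi-likelihood adjusted p = 0.0228). The call was lost without LMX1B+/- 3 (log2 fold change -0.59, adjusted p = 0.0960), without LMX1B+/+ 2 (-0.78, adjusted p = 0.0540) and without LMX1B+/+ 3 (-0.73, adjusted p = 0.0737). In LMX1B-/- against LMX1B+/- its change was 0.39 (SE 0.25, adjusted p = 0.290).

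These were the 2 genes called of the 9 that passed the filter in LMX1B+/- against LMX1B+/+, 1 higher and 1 lower. Of the 21729 genes tested in this comparison 36.7% were called, 19.4% higher and 17.3% lower, so a share of 2 in 9 lies below the background. The median log2 fold change of the 9 genes was 0.05, against -0.03 for all genes tested.

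Neb, Ttn and Cmya5 were not called in any comparison of the LMX1B genotypes. Neb was at 2.67, 4.19 and 2.41 CPM in LMX1B+/+, at 4.09, 2.55 and 2.13 CPM in LMX1B+/- and at 4.13, 3.09 and 3.84 CPM in LMX1B-/-. Ttn was at 3.59, 5.89 and 3.38 CPM in LMX1B+/+, at 3.00, 3.03 and 4.26 CPM in LMX1B+/- and at 5.10, 3.50 and 3.87 CPM in LMX1B-/-. For both genes the 3 genotypes overlapped, with log2 fold changes from -0.31 (Ttn, SE 0.25) to 0.34 (Neb, SE 0.27). Cmya5 was at 1.76, 2.63 and 1.28 CPM in LMX1B+/+, at 1.63, 1.68 and 1.20 CPM in LMX1B+/- and at 2.10, 2.08 and 1.78 CPM in LMX1B-/-. Its LMX1B-/- libraries all lay above those of LMX1B+/-, at a log2 fold change of 0.40 (SE 0.27, edgeR quasi-likelihood adjusted p = 0.311).

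Of the developmental myosins, Myh8 differed between LMX1B-/- and LMX1B+/- and Myh3 was not called. Myh8 was at 3.48, 4.78 and 4.06 CPM in LMX1B+/+, at 5.54, 5.61 and 4.50 CPM in LMX1B+/- and at 3.81, 2.41 and 1.78 CPM in LMX1B-/-. The LMX1B-/- libraries lay below all LMX1B+/- libraries, and LMX1B-/- 1 overlapped LMX1B+/+. Myh8 fell in LMX1B-/- against LMX1B+/- by 0.98 on the log2 scale (SE 0.25, edgeR quasi-likelihood adjusted p = 0.0116). Without LMX1B-/- 3 the change was -0.75 (adjusted p = 0.0537). Against LMX1B+/+ it was -0.63 (SE 0.25, adjusted p = 0.566).

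Myh3 was at 0.703, 0.866 and 1.13 CPM in LMX1B+/+, at 0.688, 0.710 and 1.41 CPM in LMX1B+/- and at 1.61, 0.980 and 0.822 CPM in LMX1B-/-. The genotypes overlapped, with log2 fold changes of 0.05 to 0.31 (SE 0.36 to 0.37) and adjusted p of 0.640 to 0.928 in edgeR's quasi-likelihood test. In each of the 9 libraries the count of Myh8 was above that of Myh3, by CPM and, from the deposited RPKM, also per length.

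The adult chains were low in all 9 embryonic libraries. Myh1 was at 0.387, 0.242 and 0.518 CPM in LMX1B+/+, at 1.19, 0.484 and 0.420 CPM in LMX1B+/- and at 0.484, 0.535 and 0.186 CPM in LMX1B-/-. Myh2 was at 0.774, 0.346 and 0.608 CPM in LMX1B+/+, at 2.06, 0.774 and 0.420 CPM in LMX1B+/- and at 0.420, 0.505 and 0.451 CPM in LMX1B-/-. LMX1B+/- 1 was the highest library for both genes, and the other LMX1B+/- libraries overlapped the other genotypes. Neither gene was called, and the largest difference was that of Myh2 in LMX1B-/- against LMX1B+/- (log2 fold change -1.21, SE 0.51, edgeR quasi-likelihood adjusted p = 0.0995). It was called in 2 of 15 alternatives, without LMX1B+/- 3 (-1.61, adjusted p = 0.0308) and without the filter on low counts (-1.21, adjusted p = 0.0164), and over the 15 the adjusted p lay between 0.0164 and 0.597.

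The developmental chains Myh3 and Myh8 took 78.3%, 90.6% and 82.1% of the counts on Myh3, Myh8, Myh1 and Myh2 in LMX1B+/+ 1 to 3, 65.6%, 83.4% and 87.6% in LMX1B+/- and 85.7%, 76.5% and 80.3% in LMX1B-/-. The means were 83.7% ± 6.27, 78.9% ± 11.6 and 80.9% ± 4.62 (SD, n = 3), which overlapped, and the totals behind them were 122 to 280 counts. In every Lmx1b library this share was above the 11.0% of AMPK+/+ 3, in which the myosin counts were mostly of the adult fast forms. AMPK+/+ 1, AMPK-/- 1 and AMPK-/- 2, also neonatal and of the same experiment, were at 62.2%, 42.9% and 41.7%, from 12 to 37 counts. Age and experiment differ together between the AMPK and the Lmx1b libraries and cannot be told apart.

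Ckm was at 0.106, 0.0693 and 0.0225 CPM in LMX1B+/+, at 0.109, 0.387 and 0.180 CPM in LMX1B+/- and at 0.387, 0 and 0.133 CPM in LMX1B-/-. These are 0 to 12 counts a library, and Ckm did not pass the filter. In LMX1B+/+ it was at or below the limit of 3 counts in every library.

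**Figure D5:**
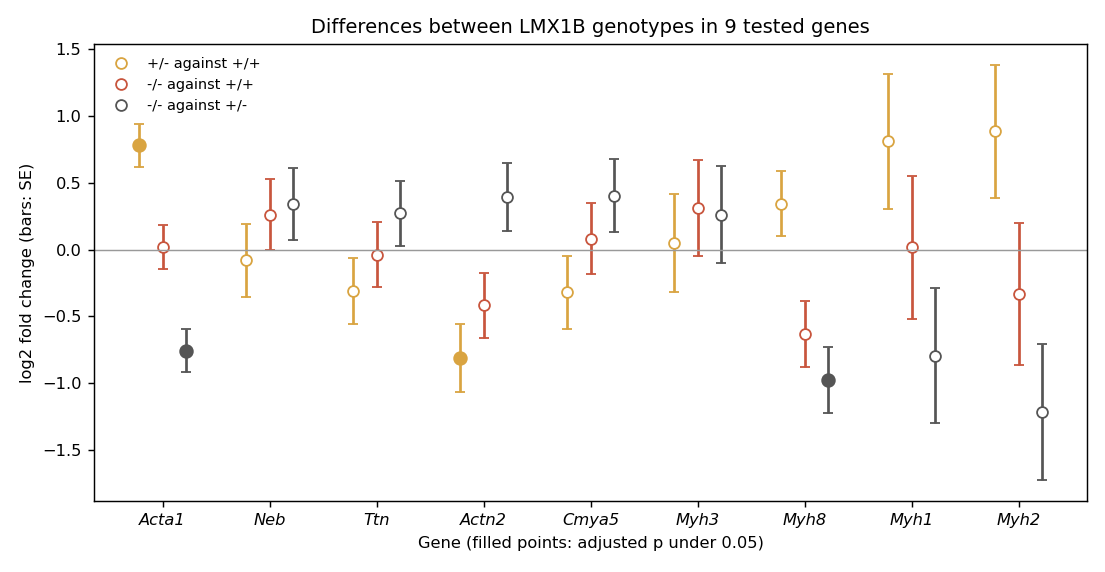
log2 fold change with its SE for the 9 genes tested, in LMX1B+/- against LMX1B+/+ (yellow), LMX1B-/- against LMX1B+/+ (red) and LMX1B-/- against LMX1B+/- (grey), with filled points for an adjusted p under 0.05. The filled points are Acta1 at 0.78 and -0.76, Actn2 at -0.81 and Myh8 at -0.98.

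In LMX1B-/- against LMX1B+/+, 0 of the 9 genes were called by edgeR and 0 by DESeq2, where 0.0184% of all genes were called by edgeR, and 1 gene, Myh8, had an unadjusted p under 0.05. The log2 fold changes ran from -0.63 for Myh8 to 0.31 for Myh3. In LMX1B-/- against LMX1B+/-, Acta1 and Myh8 were called, both lower, where 25.5% of all genes were called and 14.0% were lower. The share of 2 in 9 called lies a little below the 25.5% in either direction and above the 14.0% called lower. Neither difference was tested. The median log2 fold change of the 9 genes was 0.02 in the first of these comparisons and 0.26 in the second, against 0.01 and 0.02 for all genes tested. The comparisons share their LMX1B+/- or LMX1B-/- libraries and are not independent of each other.

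Of the 53 muscle genes tested beside the members, 11 were called in LMX1B+/- against LMX1B+/+, a smaller share than the 36.7% of all genes tested. The 6 higher genes include fast or early forms of the filaments, Mylpf (2.20 on the log2 scale), Myl1 (1.79), Tnnt3 (1.78) and Actc1, the cardiac actin of early muscle (2.21), and the others are Tpm2 (0.65) and Klhl41 (1.73). The 5 lower genes include Ryr1, the calcium release channel (-0.86), Ldb3 (-0.80) and Phkg1 (-1.04). The called genes of a list had 1 direction: 4 of 9 thin filament genes and 2 of 11 genes of the myosin and M-band list were called higher, and 2 of 10 Z-disc genes, 2 of 11 genes of excitation-contraction coupling and 1 of 5 of energy metabolism lower. All 9 thin filament genes had a positive fold change and 9 of the 11 coupling genes a negative one, and the median over the 53 genes was -0.04.

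Mylpf was at 1.85, 1.74 and 3.00 CPM in LMX1B+/-, at 0.422, 0.589 and 0.428 CPM in LMX1B+/+ and at 1.45, 0.416 and 0.504 CPM in LMX1B-/-. Like Acta1, it was higher in each LMX1B+/- library than in any other library. In LMX1B-/- against LMX1B+/-, where 25.5% of all genes were called and 14.0% were lower, 11 of the 53 genes were called, a smaller share than that of all genes. Of these, 7 were lower, among them Mylpf (-1.49), Myl1 (-2.11), Actc1 (-1.65) and Tnnt3 (-1.01), and 4 higher, among them Ryr1 (0.78) and Phkg1 (1.06). In LMX1B-/- against LMX1B+/+, 0 of the 53 were called by edgeR and 0 by DESeq2, and 2 had an unadjusted p under 0.05 in edgeR.

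Markers of other cells were also called in LMX1B+/- against LMX1B+/+, some higher and some lower, where 36.7% of all genes tested were called. All 5 erythroid genes were called higher in LMX1B+/- against LMX1B+/+ and all 5 lower in LMX1B-/- against LMX1B+/-. They summed to 3546 to 7508 CPM in LMX1B+/-, to 508 to 1248 CPM in LMX1B+/+ and to 1060 to 2379 CPM in LMX1B-/-, with none at 0. Ibsp, a bone matrix protein, was at 2.93, 14.5 and 11.5 CPM in LMX1B+/- and at 0.225 to 1.46 CPM in the other 6 libraries, and the 12 cartilage and bone markers summed to 19.0 to 52.0 CPM in LMX1B+/-, 19.0 to 20.4 CPM in LMX1B+/+ and 21.0 to 38.1 CPM in LMX1B-/-. The 7 skin markers summed to 17.3 to 19.5 CPM in LMX1B+/- and to at most 15.1 CPM in the other 6 libraries, and 2 of the 4 tested, Krt1 and Krt15, were called higher in LMX1B+/- against LMX1B+/+. Of the hindbrain and neuron markers, 4 were called higher in that comparison, the position genes Hoxa5, Hoxb2, Hoxb3 and Hoxb4 (0.81 to 1.43 on the log2 scale), and 2 lower, and of the pituitary markers Gh was called higher (5.83). Called lower were Fmod (-1.37) and Col3a1 (-0.86) of connective tissue and Myh11 (-1.18) of smooth muscle. Myh9 (-0.68) and Myh10 (-0.48), non-muscle relatives of the members, were lower too. Of the cardiac markers, Myh6 was called lower (-0.65) and Tnnt2 higher (1.48). The part of these markers in the values of Acta1, Actn2 and Myh8 was not tested. By likeness of profile over the 9 libraries, the genes nearest to the mean profile of the 9 tested members were Edc3, Zswim6, Fbxo6, Lrrc28 and Ddx21, at 0.08 to 0.11 on the log2 scale, where the profile spans 0.61. None of them is in a muscle list.

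Promoters are shown for the members in which the MEF2 site or the CArG box, motifs bound by factors of muscle transcription, was found. RefSeq entries (build GRCm38.p6) were matched for 9 of the 10 genes, all but Neb, and the 250 bases before each start were searched on both strands for the MEF2 site, the CArG box bound by serum response factor and the E-box CANNTG. The MEF2 site was found before Ttn, Myh1 and Myh8, and in 2.92% of all 32851 promoters of this length. The CArG box was found before Acta1, and in 1.47% of all promoters. The E-box was found before 7 of the 9 genes and in 66.2% of all promoters. The 4 promoters below lie at chr8:123894776-123895025, minus strand, for Acta1, at chr11:67199852-67200101, plus strand, for Myh1, at chr11:67276874-67277123, plus strand, for Myh8 and at chr2:76982548-76982797, minus strand, for Ttn, and capitals mark the CArG box in the first and the MEF2 site in the others.
Acta1: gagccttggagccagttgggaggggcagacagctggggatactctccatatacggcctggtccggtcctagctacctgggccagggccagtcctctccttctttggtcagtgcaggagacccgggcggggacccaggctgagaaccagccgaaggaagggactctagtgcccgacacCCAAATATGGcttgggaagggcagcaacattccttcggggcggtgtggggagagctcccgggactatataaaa
Myh1: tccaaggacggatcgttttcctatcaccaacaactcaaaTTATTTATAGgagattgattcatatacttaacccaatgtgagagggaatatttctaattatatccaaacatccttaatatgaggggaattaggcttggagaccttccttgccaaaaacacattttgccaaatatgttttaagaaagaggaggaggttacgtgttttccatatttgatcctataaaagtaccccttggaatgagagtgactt
Myh8: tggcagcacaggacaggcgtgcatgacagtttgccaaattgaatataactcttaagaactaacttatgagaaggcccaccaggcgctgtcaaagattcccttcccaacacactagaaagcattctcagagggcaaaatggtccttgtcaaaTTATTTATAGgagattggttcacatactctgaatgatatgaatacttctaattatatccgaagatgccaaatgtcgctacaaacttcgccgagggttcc
Ttn: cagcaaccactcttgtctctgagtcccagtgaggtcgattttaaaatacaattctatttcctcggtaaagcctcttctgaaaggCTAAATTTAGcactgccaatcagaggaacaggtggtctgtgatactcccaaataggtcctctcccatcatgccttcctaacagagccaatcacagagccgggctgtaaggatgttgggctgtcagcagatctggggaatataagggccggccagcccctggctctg
Myh1 and Myh8 hold the same 10 letters at the MEF2 site, 202 and 90 bases before the start. A match is a description of these letters and not a site bound in these samples.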

How the data were processed

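RNA-seq of mouse brainstem was deposited as counts per gene and RPKM per gene for 6 AMPK and 9 Lmx1b libraries. The authors aligned reads to GRCm39 with HISAT2, per the submitters' processing notes, within systemPipeR. Counts were deposited unscaled. The RPKM deposited by the authors divide each count by gene length and library total. The read counter, its use of strand and its treatment of reads with several matches are not given in the sources used here. The kit marks strand. Neb, Ttn, Cmya5, Myh1, Myh2 and Ckm share exon bases with genes on the opposite strand, and unless strand was used their reads cannot be told apart. Columns were assigned by genotype and number. AMPK+/+ 3 carries a suffix after its number, and LMX1B+/+ 3 the number 4 of its library name. Symbols were matched for 51884 of 57180 identifiers (90.7%).

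Counts were analysed with edgeR 4.0.16 (R 4.3.3): filterByExpr, TMM, quasi-likelihood F-test with genotype as the only term, 1 fit of 6 and 1 of 9 libraries, Benjamini-Hochberg over all genes tested, called at an adjusted p under 0.05. For edgeR, the SE of a log2 fold change is its absolute value divided by the square root of the quasi-likelihood F. CPM are counts per 1000000 counts of the TMM-scaled total. The scripts were tested on simulated data. Ratios between libraries are exact binomial and shares Wilson intervals at 95%, for counting error only. Identity was taken from mafft 7.526 alignments. Profiles used log2 CPM with a prior count of 2. Alternatives were DESeq2 1.42.0, RLE factors, library size only, no filter, a replicate block, only the 6 libraries compared, each library left out, RPKM shares, Myh4 and Myh7 in the share, sums without Ttn, Neb and Cmya5, and, chosen after seeing the data, no shallow libraries. The members and the 18 gene lists were chosen with earlier results of these data known. Named besides members were the 2 tested genes of each list with the highest mean CPM, list genes called between LMX1B genotypes (at most 4 a list) and the 5 genes nearest in profile. The values of 1 list gene, which stays in the counts, are not reported here. Genes named outside that rule are marked in the text.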

Additional observations from a re-analysis of the deposited data

How the results depend on the processing

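Of the 10 genes, 6 were called in AMPK-/- against AMPK+/+, and 0 to 6 when 1 library was left out; the 0 came without AMPK+/+ 3. Without the shallow libraries 0 of 7 were called, and 6 had an unadjusted p under 0.05. Without the filter on low counts 9 of 10 were called. Of these, Ckm, Myh2 and Myh8 had 1223, 917 and 237 counts in AMPK+/+ 3 and at most 6 in any other AMPK library. Except where given above, the counts called in this section stand without the share of all genes called. They describe the fits and are no support. DESeq2 gave no adjusted p to any of the 6, and to 2 of the 29 other muscle genes tested, of which it called 0. Those muscle genes gave 13 calls, 43 without the filter, 0 without the shallow libraries and 1 to 20 when 1 library was left out, with 20 without AMPK+/+ 1 and 1 without AMPK+/+ 3. With library size only, 1 of the 10 genes was called in LMX1B+/- against LMX1B+/+ and 1 in LMX1B-/- against LMX1B+/-. Leaving out 1 library gave 1 to 2 and 1 to 3 calls. The other muscle genes gave 17 calls without the filter in LMX1B+/- against LMX1B+/+ and 1 in LMX1B-/- against LMX1B+/+. When 1 library was left out they gave 6 to 12 calls in LMX1B+/- against LMX1B+/+, with 6 without LMX1B+/- 3, and 2 to 11 in LMX1B-/- against LMX1B+/-, with 3 without LMX1B+/- 3, 4 without LMX1B-/- 2 and 2 without LMX1B-/- 3. The share of developmental myosins was lower with Myh4 and Myh7 in the denominator, at 68.3%, 63.3% and 58.6% in LMX1B+/+, LMX1B+/- and LMX1B-/- and at 2.83% in AMPK+/+ 3. From RPKM it was 70.9%, 86.4% and 76.1% in LMX1B+/+ 1 to 3 and 55.1%, 76.3% and 83.1% in LMX1B+/- 1 to 3. It was 75.8% in LMX1B-/- and 6.92% in AMPK+/+ 3. The gene length behind the RPKM was 11772 bases for Myh8 and 6031 to 7137 for Myh3, Myh1 and Myh2. Leaving out 1 library kept the shares from counts between 80.2% and 86.3%, 74.5% and 85.5%, and 78.4% and 83.0%. The cause of these changes was not tested. Whether the replicate numbers pair the libraries is not settled. Deviations of libraries with the same number correlated by -0.18 to 0.15. Between LMX1B-/- and LMX1B+/+ they correlated by 0.08 to 0.15 for the same number and by -0.10 to -0.01 for different numbers. Between LMX1B-/- and LMX1B+/- they correlated by -0.18 to -0.13 for the same number and by up to 0.24 for different numbers. With the replicate block, 5 of the 10 genes and 5 of the other muscle genes were called in the AMPK comparison, where Actn2 had a log2 fold change of -1.52, and no call of the 10 genes changed in the Lmx1b comparisons. In AMPK+/+ 2 and AMPK-/- 3 no level under 9.98 and 9.07 CPM can be told from 0.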
